A study of Rattus norvegicus with 6 samples.

Results

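Glutathione S-transferases (GSTs) were examined in the colons of AOM-treated rats through 10 genes, 7 encoding cytosolic enzymes (Gsta1, Gsta2, Gsta6, Gstm1, Gstm7, Gstp1 and Gstt1) and 3 encoding microsomal ones (Mgst1, Mgst2 and Mgst3). Each was found by matching the accession of a probe to a current RefSeq symbol, which gave exactly 1 probe per gene, 10 of the 30367 probes on the array. All 10 probes were well above background on all 6 arrays. Colon RNA came from 3 male S.LEW(10)x12x2x3x5 congenic rats (C1, C2 and C3) and 3 male Dahl salt-sensitive (S) rats (S1, S2 and S3), each hybridized to an Agilent array of its own in a single color. The S rat is inbred and becomes hypertensive on salt, and the congenic rat is an S rat into which a short stretch of chromosome 10 was bred from the Lewis (LEW) strain. Both strains ate a 0.3% NaCl diet, received 2 injections of AOM, a colon carcinogen, at 15 mg/kg from 6 weeks of age, and were 30 weeks old at harvest. No untreated rats were among the samples, and neither the labels nor the methods say whether the colon RNA included tumor.

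GSTs join the thiol of glutathione to reactive electrophiles, which makes these compounds more soluble and ready for export. The cytosolic enzymes are dimers grouped in classes (alpha, mu, pi and theta here, the letter after Gst in each symbol). The microsomal enzymes are an unrelated family of membrane proteins, some of which also reduce lipid peroxides or form cysteinyl leukotrienes. In the gut these enzymes are made mainly by the epithelium, and many GST genes answer to the transcription factor Nrf2, which binds the antioxidant response element. None of the 10 genes lies on chromosome 10.

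The stretches before the start sites of 5 of these genes are shown. They carry the elements searched for, or lie before genes near each other on chromosome 9 that differed in pattern. Each runs 5′ to 3′ over 250 bases before the RefSeq start in GRCr8, and capitals mark TGACNNNGC (the antioxidant response element core) or GCGTG (the xenobiotic response element core) on either strand.
Gstp1 (chr1:210769706-210769955, minus strand): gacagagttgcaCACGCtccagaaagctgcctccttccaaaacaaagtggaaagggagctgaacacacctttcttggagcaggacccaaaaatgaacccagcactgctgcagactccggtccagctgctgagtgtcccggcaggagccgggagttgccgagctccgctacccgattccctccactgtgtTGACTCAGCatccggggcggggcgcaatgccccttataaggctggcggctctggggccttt
Gstm7 (chr2:198260320-198260569, minus strand): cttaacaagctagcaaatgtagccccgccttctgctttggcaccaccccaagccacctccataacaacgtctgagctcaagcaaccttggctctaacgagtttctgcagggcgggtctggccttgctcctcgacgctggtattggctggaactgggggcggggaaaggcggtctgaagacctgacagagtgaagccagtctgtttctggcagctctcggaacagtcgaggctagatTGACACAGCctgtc
Mgst3 (chr13:82080296-82080545, minus strand): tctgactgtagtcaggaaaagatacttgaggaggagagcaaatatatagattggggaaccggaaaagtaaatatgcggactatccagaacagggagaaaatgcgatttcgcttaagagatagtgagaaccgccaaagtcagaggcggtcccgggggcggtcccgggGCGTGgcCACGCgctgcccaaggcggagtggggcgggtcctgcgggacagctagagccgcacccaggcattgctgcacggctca
Gsta1 (chr9:31216533-31216782, minus strand): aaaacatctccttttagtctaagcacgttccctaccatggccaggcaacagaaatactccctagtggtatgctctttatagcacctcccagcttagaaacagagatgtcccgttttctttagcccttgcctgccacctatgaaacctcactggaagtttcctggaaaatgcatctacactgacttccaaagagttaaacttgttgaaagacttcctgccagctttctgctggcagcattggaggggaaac
Gsta6 (chr9:31275352-31275601, minus strand): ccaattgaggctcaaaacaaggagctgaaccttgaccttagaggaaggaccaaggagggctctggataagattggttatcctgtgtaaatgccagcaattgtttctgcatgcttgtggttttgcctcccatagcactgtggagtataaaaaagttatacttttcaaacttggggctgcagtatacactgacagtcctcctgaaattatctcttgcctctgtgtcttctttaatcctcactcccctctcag
Such a stretch was at hand for 8 of the 10 genes. TGACNNNGC was found in 2 of the 8, beginning at -61 in Gstp1 and at -14 in Gstm7, against 10.1% of 33469 promoters of the same length. GCGTG was found in 3 of the 8 (Gstp1, Gsta2 and Mgst3), against 25.9% of all promoters. Both Mgst3 and Gsta2 held it on both strands, beginning at -84 and -77 in Mgst3 and at -24 and -19 in Gsta2. The stretch of Gsta2 is not printed. Neither element was found in the stretches of Gsta1 and Gsta6, which lie near each other on chromosome 9. These matches are a description of the letters in the window and say nothing of binding.

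The question addressed was whether the genes of this detoxification family differed in expression between the strains. At the cut-offs of the study (unadjusted p under 0.05 and a 2-fold change), limma called 5 of the 10 genes higher in the congenic strain than in the S strain, where 3.23% of 23974 tested probes were called higher. None was called lower, against 2.35% of all probes. The 5 genes were Mgst1, Mgst3, Gsta1, Gstt1 and Gstm7. At an unadjusted p under 0.05 with no limit on the fold, 7 genes were higher (8.57% of all probes), the other 2 being Gstp1 and Mgst2, and none was lower (4.39% of all probes). In 6 genes every congenic rat lay above every S rat, as was the case for 12.4% of all probes, and in none did every congenic rat lie below every S rat (5.31% of all probes). The median log2 fold change (congenic over S) was 0.98 for the 10 genes and 0.01 for all probes. With p-values adjusted over all probes by the Benjamini-Hochberg method, limma passed none of the 10 genes and no other probe (0.00%) at 0.05, and 0.203 was the lowest value reached by a GST gene. Without adjustment 7 of the 10 genes and 13.0% of all probes were under 0.05 in either direction. The methods' t-test called 3 GST genes higher (Gsta1, Mgst1 and Mgst3) and none lower at the cut-offs, against 2.14% and 0.717% of all probes, and it also passed no probe after adjustment, with 10.8% of probes under an unadjusted p of 0.05. Scaled to the 75th percentile of each array in place of quantile normalization, 692 probes were higher (2.89%) and 760 lower (3.17%) over the whole array, against 775 and 563 here, 4 GST genes were called higher (without Gstm7), and the direction of all 10 GST genes was the same.

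The arrays did not fall cleanly by strain. Across 23968 probes, the array of S2 had correlations of 0.967 to 0.976 to those of the congenic rats and of 0.900 and 0.937 to those of S1 and S3, and the median intensity before normalization was 594 and 445 in S1 and S3 but 214 to 291 on the other 4 arrays. The 16 lymphocyte markers with a probe, of 18 listed, averaged a log2 signal of 5.20 to 5.75 in the congenic rats and 5.35 in S2, but 10.99 in S1 and 10.83 in S3. Of the 16, 15 were higher in S1 and S3 than in the other 4 rats, as were 25.8% of all probes. Cd3e, Cd2, Cd79b, Cr2 and Ccr7 were among those with no congenic array well above background. Of the 10 lymphocyte markers that were tested, 4 were called lower and none higher, beside 2.63% and 3.79% of all genes. The summed signal of 17 colon epithelium markers, all well above background on all arrays, had a log2 of 17.87 to 18.27 in the congenic rats. In the S rats it was 16.92 to 17.18, so that the strains did not overlap. Of the 17, 4 were called higher and none lower, beside 3.79% and 2.63% of all genes. The median log2 fold change of the 17 was 0.80, against 0.98 for the 10 GST genes and 0.03 for all genes. It was above 0 in 14 of them and below 0 in 3. In 10 of the 17 every congenic rat lay above every S rat (12.4% of all probes). In Aqp8 every congenic rat lay below every S rat (5.31% of all probes), with a log2 fold change of -0.998 (SE 0.26). The mean log2 signal of 10 adipocyte markers was also higher in every congenic rat (7.53 to 8.14) than in every S rat (6.98 to 7.11). Of the 10, Cfd and Adipoq were called higher and none lower, beside 3.79% and 2.63% of all genes. The summed signal of the 10 overlapped between the strains (11.50 to 12.37 and 10.86 to 11.68 as log2). Of 11 striated muscle markers, 10 were tested, and Myh1, Mybpc1 and Tnnt3 were called lower in the congenic rats, beside 2.63% of all genes. Myh1 had the smallest limma adjusted p of the array (0.101), and Myh1 and Mybpc1 had no congenic array well above background. Of the 10, 3 had a log2 fold change above 0 and 7 below 0. The summed signal of the 11 overlapped between the strains (14.38 to 14.70 in the congenic and 13.42 to 15.53 in the S rats as log2). Aqp8, Cfd, Adipoq, Myh1, Mybpc1 and Tnnt3 are named after their values were seen. In whole colon RNA, fewer cells of a type and less RNA per cell cannot be told apart, and the part of these cell types in the values below was not tested. The arrays of all 3 S rats and C1 shared a scan time, and those of C2 and C3 shared another. Each set was taken as a slide, although no label names the slides. C1 was the highest congenic rat in Mgst2, Mgst3 and Gstp1, and the lowest in Gsta1 and Gstt1. A fit with the slide as a block compares the S rats with C1 alone. That fit called Mgst1, Mgst2, Mgst3 and Gstp1 higher and no GST gene lower, against 2.30% and 0.939% of all probes.

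**Figure D1:**
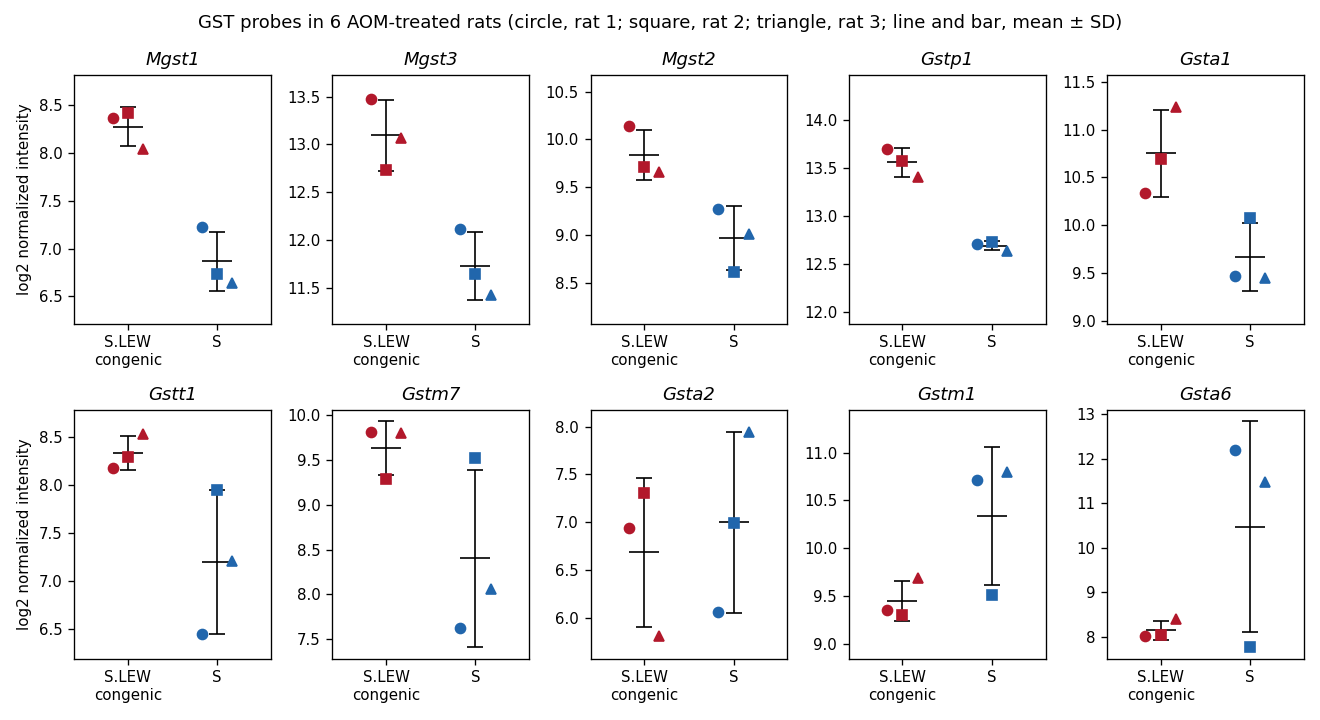
Log2 normalized intensity of the 10 GST probes in each rat, with a panel and a vertical axis of its own for each gene. Circles, squares and triangles are rats 1, 2 and 3, lines and bars are the mean ± SD of 3 rats, and the congenic rats lie wholly above the S rats in the panels of Mgst1, Mgst3, Mgst2, Gstp1, Gsta1 and Gstt1.

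In all 3 microsomal genes every congenic rat lay above every S rat, and Mgst1 and Mgst3 were called higher. Mgst1 encodes a membrane enzyme of the endoplasmic reticulum and mitochondria that protects lipids from peroxidation. Among the congenic rats C1 had a log2 signal of 8.36, C2 of 8.41 and C3 of 8.04, while S1 had 7.22, S2 had 6.74 and S3 had 6.64. The strains were fully apart, with a gap of 0.82 between their nearest rats. The log2 fold change was 1.41 (standard error, SE, 0.23, limma adjusted p = 0.203), or 2.65-fold. Mgst1 stayed past the cut-offs with each rat left out in turn (log2 fold change 1.29 to 1.59), with the slide as a block (1.50), and against S2 alone (1.53).

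Mgst3, whose product reduces lipid hydroperoxides and can form cysteinyl leukotrienes, had log2 signals of 13.48, 12.73 and 13.07 in C1, C2 and C3 and of 12.12, 11.65 and 11.42 in S1, S2 and S3. The strains did not overlap, and the log2 fold change of 1.36 (SE 0.28, limma adjusted p = 0.227) was 2.57-fold. It also stayed past the cut-offs with each rat left out (1.17 to 1.56), and it was 1.75 with the slide as a block. Mgst2, a related enzyme with leukotriene-forming activity, had log2 signals of 10.14, 9.71 and 9.66 in C1, C2 and C3 and of 9.27, 8.61 and 9.02 in S1, S2 and S3. Again the strains did not overlap, but the log2 fold change of 0.87 (SE 0.25, limma adjusted p = 0.299) was below 2-fold. With the slide as a block it was 1.17, and without S1 it was 1.02, both past the cut-offs.

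Gstp1, the pi-class enzyme long used as a marker of preneoplastic foci in rat liver, had the least spread among the S rats of the 10 genes. Its log2 signal was 13.70, 13.58 and 13.40 in C1, C2 and C3 and 12.70, 12.73 and 12.64 in S1, S2 and S3. The congenic mean was 13.56 ± 0.15 (SD, n = 3) and the S mean 12.69 ± 0.05 (SD, n = 3), and the nearest rats of the strains were 0.68 apart. The log2 fold change was 0.87 (SE 0.17, limma adjusted p = 0.219), or 1.83-fold, short of the 2-fold limit. Leaving out each rat gave 0.80 to 0.95, and at 1.02 with the slide as a block it passed the cut-offs.

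For these 4 genes, S2 lay with S1 and S3 although it resembled the congenic rats across the array. The congenic mean exceeded S2 by 1.53 (Mgst1), 1.45 (Mgst3), 1.23 (Mgst2) and 0.84 (Gstp1) on the log2 scale, and it exceeded the mean of S1 and S3 by 1.34, 1.32, 0.69 and 0.89. The lymphocyte markers of S2 were at the congenic level. Its epithelium markers averaged a log2 signal of 11.78, above S1 (11.65) and S3 (11.54) and below the congenic rats (12.08 to 12.62). The part of either cell type in these 4 genes was not tested.

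Among the alpha-class genes, Gsta1 was higher in the congenic rats, Gsta6 was high in only S1 and S3, and Gsta2 followed no strain. The alpha-class genes are close copies of each other, as are those of the mu class, and which of them each probe reads was not checked. Gsta1 is the current name of the gene formerly called Gsta3 or Yc1, and alpha-class enzymes conjugate a wide range of drugs and reduce organic peroxides. For Gsta1, C1 had a log2 signal of 10.34, C2 of 10.69 and C3 of 11.23, while S1 had 9.47, S2 had 10.08 and S3 had 9.45. C1, the lowest congenic rat, was 0.26 above S2, the highest S rat. The log2 fold change was 1.08 (SE 0.30, limma adjusted p = 0.294), or 2.12-fold. It fell short of the cut-offs with the slide as a block (0.67) and without C3 (0.84), S1 (0.99) or S3 (0.98).

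Gsta6 had the largest spread within a strain. Its log2 signal was 12.19 in S1 and 11.48 in S3 but 7.76 in S2, and 8.02, 8.03 and 8.39 in C1, C2 and C3. S2 was therefore below every congenic rat, while S1 and S3 were far above them. The probe was printed 10 times on each array, and the SD between its spots was 0.03 to 0.12 on the log2 scale, small beside the gap of S2 to S1 and S3. The log2 fold change over all rats was -2.33 (SE 1.10, limma adjusted p = 0.408) and did not pass the cut-offs. Without S2 it was -3.69 (limma adjusted p = 0.00228), and against S2 alone it was 0.38, the opposite direction. The rats high in Gsta6 were those high in lymphocyte markers, and the part of lymphocytes in these values was not tested.

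Gsta2, called Gsta1 in older annotation, had log2 signals of 6.94, 7.31 and 5.82 in C1, C2 and C3 and of 6.06, 7.00 and 7.94 in S1, S2 and S3. The strains overlapped widely. Its log2 fold change of -0.31 (SE 0.58, limma adjusted p = 0.803) was within the spread between rats and was above 0 without C3 (0.13) or S3 (0.16).

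The mu-class genes had fold changes of opposite sign, and in both S2 lay within the congenic range. Gstm7 had log2 signals of 9.82, 9.29 and 9.80 in C1, C2 and C3, while S1 had 7.63, S2 had 9.52 and S3 had 8.06. S2 was above C2, so that the strains overlapped. Its log2 fold change was 1.23 (SE 0.50, limma adjusted p = 0.380), 1.79 without S2 and 0.12 against S2 alone. Among the 5 called genes it was the single one in which the strains overlapped, and it fell short of the cut-offs without any rat but S2.

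Gstm1, a mu-class enzyme that conjugates epoxides among other compounds, had log2 signals of 9.36, 9.30 and 9.69 in C1, C2 and C3, while S1 had 10.71, S2 had 9.51 and S3 had 10.79. As with Gsta6, S1 and S3 stood above the other 4 rats. Over all rats it came to a log2 fold change of -0.89 (SE 0.37, limma adjusted p = 0.387), which did not pass the cut-offs. Without S2 it was -1.30 and was called lower, and against S2 alone it was -0.06.

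Gstt1, a theta-class enzyme that acts on small halogenated compounds, had log2 signals of 8.18, 8.30 and 8.53 in C1, C2 and C3, while S1 had 6.45, S2 had 7.95 and S3 had 7.21. The congenic rats lay within a narrow range, and S2 was only 0.23 below the lowest of them. Between the strains its log2 fold change was 1.14 (SE 0.39, limma adjusted p = 0.343), or 2.20-fold. It was 1.51 without S2, and it fell short of the cut-offs with the slide as a block (0.98), without C2, C3, S1 or S3 (0.76 to 1.16), and against S2 alone (0.38). S1 and S3, the lowest rats in Gstm7 and Gstt1, were also lowest in the summed signal of 11 smooth muscle markers, which had a log2 of 17.81 in S1 and 18.84 in S3, against 19.77 in S2 and 19.51 to 19.71 in the congenic rats. The part of smooth muscle in these values was not tested.

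**Figure D2:**
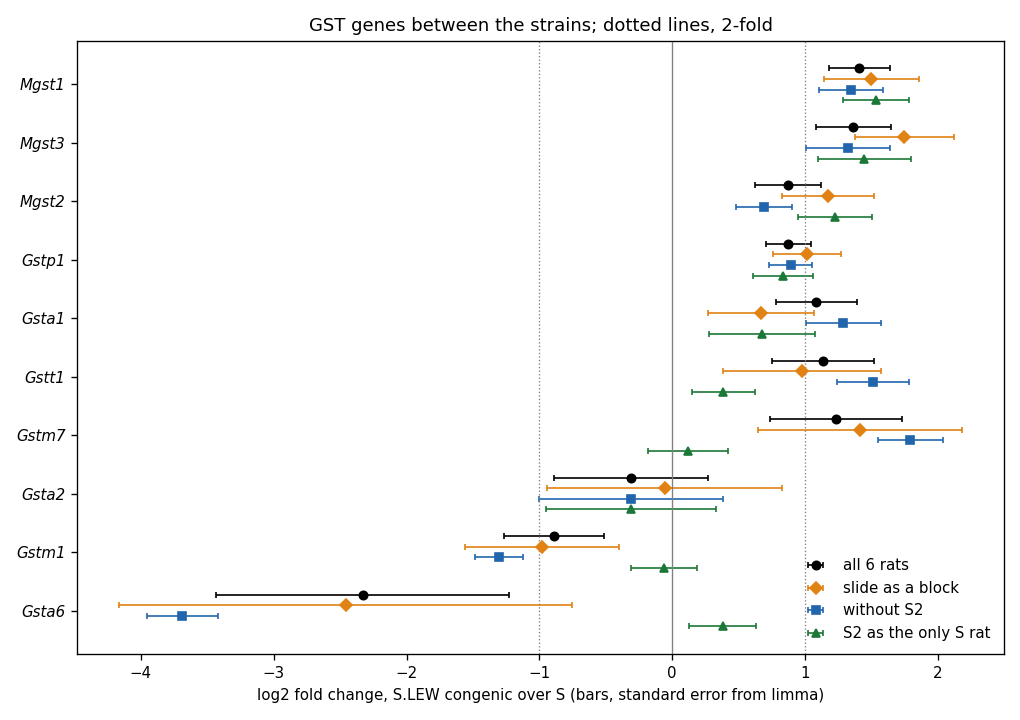
Log2 fold change of each GST gene (congenic over S) with its standard error from limma, over all 6 rats, with the slide as a block, without S2, and with S2 as the only S rat. Mgst1, Mgst3, Mgst2 and Gstp1 stay between 0.69 and 1.75 in all 4 fits, while Gsta6 goes from -3.69 without S2 to 0.38 against S2 alone.

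Two-sided exact permutation tests over the 6 rats gave p = 0.10 for Mgst1, Mgst2, Mgst3, Gstp1, Gsta1 and Gstt1, which is the smallest that 3 rats against 3 allow. The same exact permutation tests gave 0.20 for Gstm1 and Gstm7, 0.40 for Gsta6 and 0.70 for Gsta2. Leaving out a rat changed the calls. Without C3 or S3, 2 GST genes were called higher (Mgst1 and Mgst3), and without C2 or S1 there were 3, with none lower. Without S2 limma called the same 5 GST genes higher and 2 lower (Gsta6 and Gstm1), but 10.0% of all probes were then higher and 7.20% lower at the cut-offs, and 8 of the 10 GST genes passed an adjusted p of 0.05 where 23.2% of all probes did. With S2 as the only S rat, the called genes were the 3 microsomal ones, and none was lower, against 1.87% and 1.97% of all probes, in a fit that takes the lone S rat to vary like the congenic rats. In 2 of the 10 genes (Gsta6 and Gstm1) S1 and S3 were above the other 4 rats, as in 25.8% of all probes, and in 4 (Gsta1, Gstm7, Gstp1 and Gstt1) they were below them, as in 28.3%. In Gstp1 this holds narrowly, as S2 (12.73) was just above S1 (12.70) and well below the congenic rats (13.40 to 13.70).

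**Figure D3:**
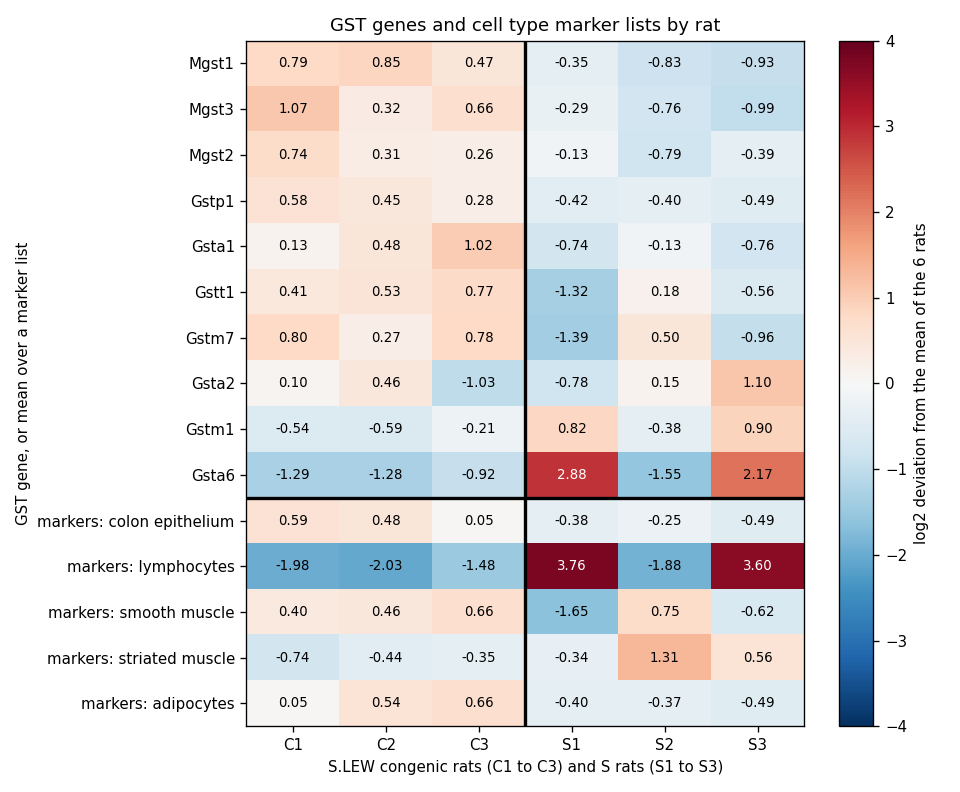
Log2 deviation of each rat from the mean of the 6 rats, for the 10 GST genes and, below the line, the mean over 5 lists of cell type markers with a probe. S1 and S3 stand at 3.76 and 3.60 for the lymphocyte markers and at 2.88 and 2.17 for Gsta6, and the congenic rats at 0.05 to 0.59 for the epithelium markers, above the S rats at -0.49 to -0.25.

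Most other genes listed with the GST family also had a higher mean in the congenic rats. Hpgds, described below, is in this list. So are Ltc4s (log2 fold change 0.26), Ptges (-1.20) and Alox5ap (-0.01), which do not carry a GST name and are named to give the makeup of the list. Of 18 tested genes, 15 had a log2 fold change above 0 (53.0% of all genes), 4 were called higher and none lower, where 3.79% of 12397 genes were called higher and 2.63% lower with 1 probe per gene. The median log2 fold change was 0.57, against 0.03 for all genes. Gsta4, which conjugates the reactive aldehydes of lipid peroxidation, differed by 1.43 on the log2 scale (SE 0.21, limma adjusted p = 0.196). Gstk1, a mitochondrial and peroxisomal enzyme, differed by 1.10 on the log2 scale (SE 0.20), and Gsta3, another alpha-class enzyme, 1.32 (SE 0.26). A dimmer probe of Gsta3 gave 2.17 (SE 0.88), with S1 within the congenic range. These 3 genes were named for the smallest p in their list, and leaving out each rat gave log2 fold changes of 0.96 to 1.59 for Gsta4, Gstk1 and the brighter probe of Gsta3. The fourth gene called was Gstm2, with 1.48 (SE 0.35), which is named after its values were seen.

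Hpgds was also chosen after its values were seen. It encodes the sigma-class GST that makes prostaglandin D in immune cells, and it had log2 signals of 11.30 in S1 and 10.89 in S3 but 3.65 in S2 and 3.93 to 5.42 in the congenic rats. It was well above background on 1 of 3 congenic arrays and on 2 of 3 S arrays, and its log2 fold change was -3.80 (limma adjusted p = 0.438). As in Gsta6, S1 and S3 were above the other 4 rats, which was so in 25.8% of all probes. The order among the rats with low signal rests on values mostly not well above background.

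Glutathione itself is made from cysteine, glutamate and glycine, and cysteine is partly made from methionine. Of 25 tested genes for its synthesis and recycling, 4 were called higher and 1 was called lower, beside 3.79% and 2.63% of all genes, with a median log2 fold change of 0.39 (0.03 for all genes). A single gene among 25 is near the share of all genes called lower. Cth and Cbs, the enzymes that lead from homocysteine to cysteine, had log2 fold changes of 2.26 (SE 0.30, limma adjusted p = 0.193) and 1.53 (SE 0.24, limma adjusted p = 0.203). The log2 signal of Cth was 8.68 to 9.20 in the congenic rats, while S1 had 6.59, S2 had 7.20 and S3 had 6.20. Chac2, which degrades glutathione, had 0.76 (SE 0.18) and did not pass the 2-fold limit. The other 2 called higher were Me1 (1.27), a source of NADPH, and Gsr (1.14), which reduces oxidized glutathione. Slc7a11, which imports cystine, was the gene called lower, with log2 signals of 8.39 in S1, 5.77 in S2, 7.63 in S3 and 5.10 to 5.50 in the congenic rats, and was past the cut-offs neither with the slide as a block nor in the methods' t-test. Me1, Gsr and Slc7a11 are named after their values were seen.

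Conjugates made by GSTs leave the cell through transporters and are trimmed to mercapturates. Of 20 tested genes for these steps, 4 were called higher and none lower, beside 3.79% and 2.63% of all genes, and the median log2 fold change of 0.10 was close to that of all genes (0.03). Dpep1, a membrane dipeptidase that splits the remaining dipeptide, differed by 1.83 on the log2 scale (SE 0.32, limma adjusted p = 0.203), and Kyat3, a cysteine conjugate lyase and kynurenine aminotransferase, 1.30 (SE 0.21, limma adjusted p = 0.203). Dpep3 had 0.96 (SE 0.28) but was well above background on only 1 of 3 congenic and 2 of 3 S arrays. The transporters Abcc3 (1.25) and Abcg2 (1.20), also called higher, are named after their values were seen.

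Among 26 tested regulators and targets of Nrf2, 3 were called higher and none lower, beside 3.79% and 2.63% of all genes. A log2 fold change above 0 was found in 20 of them, beside 53.0% of all genes, and the median was 0.44, against 0.03. All 3 encode enzymes that reduce carbonyl compounds. Akr1b8 averaged a log2 signal of 11.68 ± 0.27 among congenic rats (SD, n = 3) and 9.72 ± 0.15 among S rats (SD, n = 3), which differ by 1.96 (SE 0.21, limma adjusted p = 0.193). Akr7a3, an aflatoxin aldehyde reductase, and Cbr1, a carbonyl reductase, had 1.20 (SE 0.21) and 1.27 (SE 0.22).

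**Figure D4:**
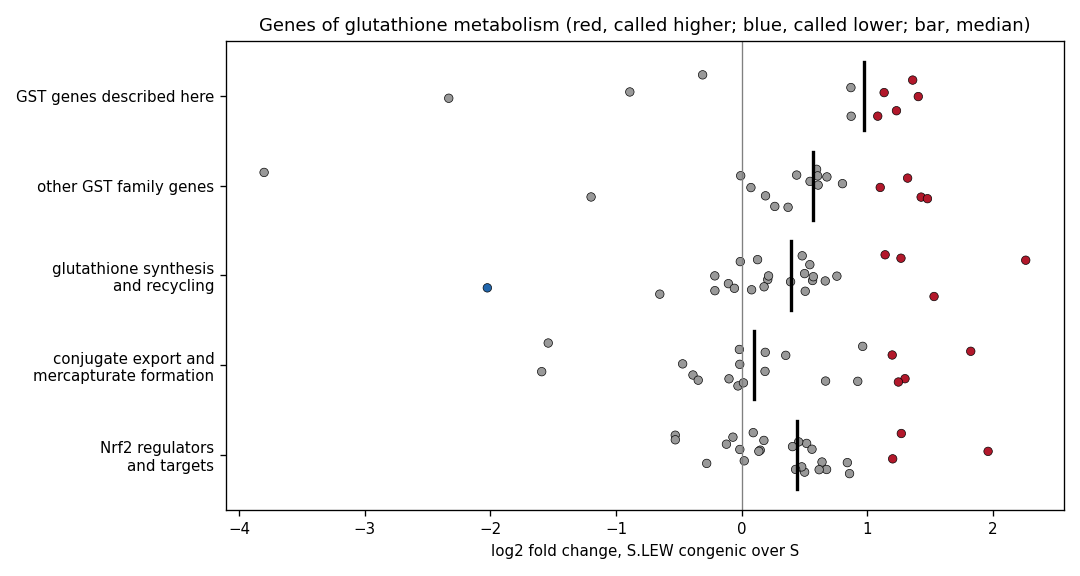
Log2 fold change (congenic over S) of each tested gene in the 10 GST genes and in 4 lists of related genes, with 1 point per gene, a bar at the median, and color for genes called higher (red) or lower (blue) at the cut-offs. The medians are 0.98, 0.57, 0.39, 0.10 and 0.44 from top to bottom, and the single blue point is Slc7a11.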

How the data were processed

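Colon RNA of 3 S.LEW congenic and 3 S rats was read on 1 single-color array each. The authors scanned the arrays with Agilent Feature Extraction 11.0.1.1, and the deposited scanner files give a background-corrected intensity per spot, not normalized between arrays. The authors also deposited log2 values, quantile-normalized in GeneSpring, for 23997 probes kept when detected in at least 3 of 6 samples.

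Here, control spots and 274 to 419 outlier spots per array were left out, log2 intensities were averaged per probe (1390 probes had several spots) and quantile-normalized, and 23974 probes, those above background by the scanner's call on 3 or more arrays, were fitted by strain with limma 3.58.1 (R 4.3.3), without covariates, with Benjamini-Hochberg adjustment over all probes. These values differed from the deposited ones by at most 0.00164 for the GST probes. Between 73.8% and 87.6% of spots per array were well above background and none was saturated. The number of arrays limits the precision. Slides were told from shared scan times.

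Of 30367 probes, 18005 matched a RefSeq gene of GRCr8. Probe sequences and proteins were not used here, so a probe that also reads a close GST paralog cannot be told from the values, and the planned protein identities were not computed. Named genes were the 10 GST genes and the 3 with the smallest limma p in each of 4 related lists (brightest probe per gene), apart from those marked in the text. The members and lists were chosen with earlier results of these data known. The fit was also run on simulated arrays with known changes and independent noise. These lack the likeness of S2 to the congenic rats, so they check the code and not the comparison of these rats. Alternatives were the 75th percentile, the deposited values, a filter on all 6 arrays, no filter, the t-test of the methods (unpaired, equal variances), replicate number or slide as a block, slide 1 alone, normexp background correction (offset 50), keeping outlier spots and leaving out each rat. Added after the data were seen were the methods' t-test on the deposited values and S2 as the only S rat. Plots were drawn with matplotlib 3.10.9.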

Additional observations from a re-analysis of the deposited data

How the results depend on the processing

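The 5 GST genes called higher became 3 (Gsta1, Mgst1 and Mgst3) with the methods' t-test, on the values made here or on the deposited ones, and 3 (Mgst1, Mgst2 and Mgst3) against S2 alone; no GST gene was called lower in these. With each rat left out, 2 to 5 were called higher (2 without C3 or S3, 3 without C2 or S1) and 0 to 2 lower (2 without S2). Mgst1 and Mgst3 were called in every fit run. All GST genes kept their direction except Gsta2, at -0.78 to 0.16 with each rat left out (0.13 without C3, 0.16 without S3), and Gsta6, at 0.38 against S2 alone. The replicate numbers gave no sign of pairing the rats, although these values cannot exclude it. The deviations of C1, C2 and C3 from their mean correlated at -0.02, -0.13 and -0.06 with those of S1, S2 and S3. No congenic rat correlated best with the S rat of its own number. The methods placed 1 S rat and 1 congenic rat in each cage, and whether the replicate numbers follow the cages is not stated. With the replicate block, 4 GST genes were called higher and 1 (Gsta6) lower. In the related lists, the other genes listed with the GST family gave 3 to 7 higher and 0 to 2 lower with each rat left out (7 and 2 without S2). For glutathione synthesis and recycling these ranges were 3 to 4 and 0 to 1 (0 without C3 or S3), with 0 lower by the methods' t-test or the slide block. For conjugate export they were 3 to 4 and 0 to 2 (2 without S2), with 2 higher by the methods' t-test, 2 lower with 75th percentile scaling and 1 lower with the replicate block. The Nrf2 list gave 3 and 0 throughout. Over the array, 514 probes were higher and 172 lower by that t-test, against 775 and 563. Normexp gave 359 and 376, and the slide block 551 and 225. The cause of these changes was not tested. No other probe had an accession that matched one of the 10 GST genes, so there was none to compare. Probes without a matched accession were not examined for these genes.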
